A study of Mus musculus with 24 samples.

Results

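The Fc gamma receptors bind the constant part of IgG, and the group described here holds the mouse genes Fcgr1, Fcgr2b, Fcgr3 and Fcgr4 with Fcer1g, which encodes their shared signalling chain. Members were every probe set that the platform annotation gave to one of these genes alone, which made 10 probe sets of 5 genes among 45037 probe sets and 18193 genes. The rule used gene names and no measured value, but the genes were chosen with earlier results of these data known. Of the 10 probe sets, 9 passed the filter on low signal, and these cover all 5 genes.

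Total RNA of mouse lung was measured on microarrays in 4 groups of 3 samples. They were IL-13 KO lungs treated with HDM (KO HDM), wild-type lungs treated with HDM (WT HDM), IL-13 KO lungs treated with PBS (KO PBS) and wild-type lungs treated with PBS (WT PBS). HDM is read here as house dust mite, an allergen source used in mouse asthma models, PBS is the saline vehicle, and IL-13 is a cytokine of allergic airway inflammation. Each sample was hybridised to a set A and a set B array, giving 24 arrays for 12 samples. The labels name no strain, age, sex, dose, route or schedule, and not how the IL-13 gene was disrupted. They also do not state whether each sample is its own animal, and the p-values therefore cover only a between-sample spread, which may be technical.

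The activating receptors (Fcgr1, Fcgr3 and Fcgr4) depend on the Fcer1g chain, whose cytoplasmic motif is phosphorylated when IgG complexes cluster the receptors and then recruits the kinase Syk. Fcgr2b is the inhibitory receptor: it carries its own inhibitory motif, recruits the phosphatase encoded by Inpp5d and is the Fc gamma receptor of B cells. In the lung these receptors are known from alveolar and recruited macrophages, monocytes, dendritic cells and neutrophils, and they mediate uptake of antibody-coated antigen.

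Promoters are shown for 3 members whose results differ in size, Fcgr3 and Fcgr2b on chromosome 1 and Fcgr1 on chromosome 3. Each is the RefSeq sequence on build GRCm38.p6, from 250 bases before to 50 bases after the gene's start, read 5′ to 3′ on the gene's strand. They lie at chr1:171059354-171059653 (Fcgr3, minus strand), chr3:96293920-96294219 (Fcgr1, minus strand) and chr1:170976022-170976321 (Fcgr2b, minus strand). Capitals mark matches to a pair of motifs searched on both strands: the PU.1 core GAGGAA, which reads TTCCTC on the other strand, and the STAT6-type site TTCNNNNGAA. PU.1 is the myeloid transcription factor encoded by Spi1, and STAT6 acts downstream of IL-4 and IL-13.
Fcgr3: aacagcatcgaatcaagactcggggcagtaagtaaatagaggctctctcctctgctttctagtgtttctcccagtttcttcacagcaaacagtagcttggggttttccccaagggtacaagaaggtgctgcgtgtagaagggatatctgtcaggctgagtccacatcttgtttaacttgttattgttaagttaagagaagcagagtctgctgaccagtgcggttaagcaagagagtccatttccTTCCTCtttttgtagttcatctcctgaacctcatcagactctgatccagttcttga
Fcgr1: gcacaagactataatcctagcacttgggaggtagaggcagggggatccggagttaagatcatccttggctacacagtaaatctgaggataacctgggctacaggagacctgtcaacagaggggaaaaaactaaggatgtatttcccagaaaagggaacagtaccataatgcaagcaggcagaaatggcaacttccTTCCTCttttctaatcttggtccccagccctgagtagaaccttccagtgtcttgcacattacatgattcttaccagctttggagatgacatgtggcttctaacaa
Fcgr2b: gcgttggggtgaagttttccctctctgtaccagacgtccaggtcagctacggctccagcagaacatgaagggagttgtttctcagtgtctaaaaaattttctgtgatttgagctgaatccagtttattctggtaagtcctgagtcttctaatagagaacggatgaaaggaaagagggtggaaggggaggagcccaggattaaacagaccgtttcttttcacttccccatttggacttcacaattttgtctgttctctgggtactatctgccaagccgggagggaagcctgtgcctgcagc
Of the 2 Fcgr3 entries the one shown held the PU.1 core at -6 and the other at -15. It was also found at -55 in the promoter of Fcgr1 and at -22 in that of Fcgr4, counted from the gene's start. The promoters of Fcgr2b and Fcer1g held no match to these letters in this window, and no member held the STAT6-type letters. Of all 32851 promoters of the same length, 28.3% held the PU.1 core and 6.95% the STAT6-type letters. A match describes the letters and is not evidence of binding.

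Some samples stood apart before any comparison. Skeletal muscle markers were high in 3 wild-type samples, WT HDM replicates 1 and 2 and WT PBS replicate 2, with summed signals of up to 5039 in WT HDM and 2381 in WT PBS against at most 334 in KO samples. Wild-type calls of the members, and the list counts and named list genes that are given further on, were recomputed without these 3 samples. The value, or the loss alone, is given where a call was lost or a count changed by over 1.5 times. Actin signal at the 5′ end relative to the 3′ end, a sign of RNA integrity, was 0.464 to 0.656 in KO HDM, 0.695 to 0.832 in WT HDM, 0.748 to 0.854 in KO PBS and 0.409 to 0.898 in WT PBS on set A. On set A KO HDM thus lay below both KO PBS and WT HDM without overlap. On set B it overlapped KO PBS, at up to 0.612 against a lowest value of 0.61. The lowest ratio of all was in a WT PBS sample on both sets (0.349 on set B). Without the 2 samples of lowest ratio, KO HDM replicate 1 and WT PBS replicate 2, the HDM calls in KO held for Fcgr3, Fcer1g and Fcgr2b and that of Fcgr4 was lost (0.67, limma adjusted p = 0.11). All 7 lung markers were measured, with summed signals of 36395 to 37382 in KO HDM, 27533 to 37787 in WT HDM, 39433 to 46245 in KO PBS and 37514 to 42018 in WT PBS. The Il13 probe set, 1420802_at, lay under the filter on low signal, at 8.71, 13.6 and 15.5 in KO HDM, 29.9, 15.96 and 15.5 in WT HDM, 3.3 to 9.46 in KO PBS and 4.65 to 12.1 in WT PBS. It was too dim for a check of the genotype labels, and the labels do not say whether it lies in the disrupted part.

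In HDM-treated lungs of either genotype, Fcgr3, Fcer1g and Fcgr2b were higher than in PBS-treated lungs of the same genotype, Fcgr4 passed the test in KO lungs, and Fcgr1 passed in neither genotype. No member passed the test between KO and wild type, and none passed the test of a difference in HDM effect between genotypes. Intensities had been scaled by the authors to a common mean on every array and were tested as log2(intensity + pseudocount) with limma, Benjamini-Hochberg adjusted over all 31526 tested probe sets at 0.05. Fold changes on this scale understate changes of low signals. In KO lungs 7 of 9 member probe sets rose after HDM by this test, where 4.31% of all tested probe sets rose and 8.67% changed in either direction. In wild-type lungs 6 of 9 rose, where 3.9% of all rose and 7.82% changed in either direction. No member probe set fell, while 4.36% of all fell in KO and 3.91% in wild type. HDM samples lay above PBS samples without overlap for 9 of 9 member probe sets in KO, where 14.6% of all did, and for 8 of 9 in wild type, where 11.2% did. The median HDM effect on the 5 representative probe sets, the tested one with the highest mean signal for each gene, was 1.03 in KO and 0.77 in wild type on the log2 scale, beside medians of -0.0046 and -0.0048 over all tested probe sets. Several of the 9 member probe sets read the same gene, Fcgr2b. By the representative probe sets 4 of 5 genes rose in KO and 3 of 5 in wild type. Of all tested genes, 11.1% changed in either direction in KO and 10.7% in wild type. In a bulk tissue sample, more cells of a type and more RNA per cell cannot be told apart.

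**Figure D1:**
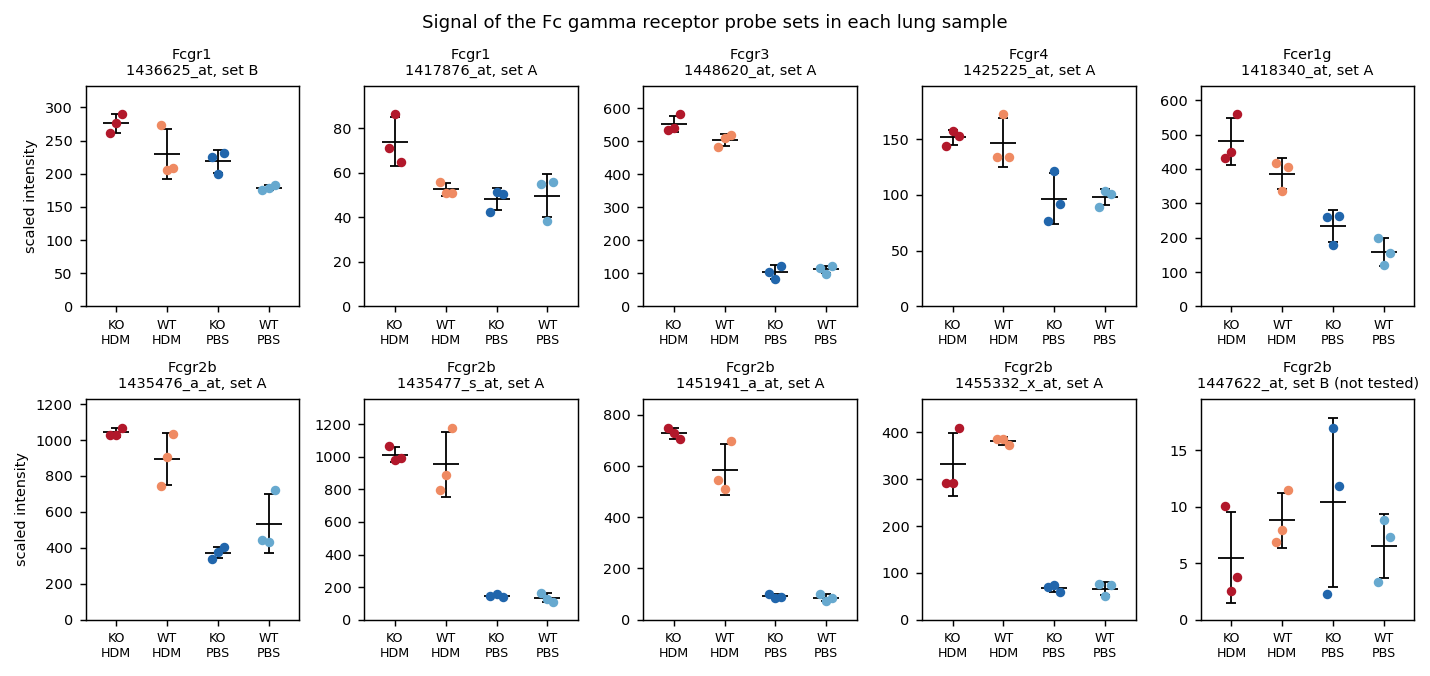
Scaled intensity of the 10 member probe sets (vertical axes, from 0) in each sample of KO HDM, WT HDM, KO PBS and WT PBS; points are samples and black bars are mean ± SD (n = 3). Fcgr3 lies between 482 and 581 in the 6 HDM samples and between 81.4 and 123 in the 6 PBS samples, while the set B probe set of Fcgr2b reads at most 16.97.

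Fcgr3, a low-affinity activating receptor for IgG complexes, had the largest rise among the activating receptors. Its probe set 1448620_at on set A read 535, 541 and 581 in KO HDM, 482, 511 and 518 in WT HDM, 104, 81.4 and 123 in KO PBS, and 116, 99.5 and 121 in WT PBS. Every HDM sample was far above every PBS sample, and the order of the groups was KO HDM, WT HDM, WT PBS, KO PBS, with the PBS groups overlapping. The HDM effect was 2.37 ± 0.15 (log2, SE; 95% interval 2.05 to 2.69; limma adjusted p = 4.09e-06) in KO, a ratio of mean signals of 5.36. In wild type it was 2.11 ± 0.15 (1.79 to 2.43; limma adjusted p = 5.29e-06), a ratio of 4.49. Both effects passed the test under every alternative setting and without any single sample.

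Fcgr4, an activating receptor of mouse monocytes, macrophages and neutrophils for IgG2a and IgG2b, changed far less. Its probe set 1425225_at read 144, 157 and 153 in KO HDM, 134, 172 and 134 in WT HDM, 76.5, 121.5 and 91.8 in KO PBS, and 89.4, 103 and 101 in WT PBS. HDM and PBS samples did not overlap in either genotype, while the genotypes overlapped under both treatments. The HDM effect was 0.64 ± 0.18 (log2, SE; limma adjusted p = 0.0488) in KO and 0.54 ± 0.18 (limma adjusted p = 0.0961) in wild type, with ratios of mean signals of 1.57 and 1.5. The KO call rests on a narrow margin: without single samples the effect ranged from 0.49 to 0.80, and it passed the test in 1 of 12 such fits, the one without KO PBS replicate 2. It was also lost with no filter on low signal (adjusted p = 0.064).

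Fcgr1, the high-affinity receptor that binds monomeric IgG and is known as an interferon gamma target, showed the smallest differences. Its representative probe set 1436625_at on set B read 261, 277 and 289 in KO HDM, 273, 206 and 209 in WT HDM, 225, 199 and 232 in KO PBS, and 175, 178 and 183 in WT PBS. HDM samples lay above PBS samples within each genotype, but KO PBS overlapped WT HDM, so genotype and treatment spread over the same range. The HDM effect was 0.32 ± 0.13 (log2, SE; interval 0.03 to 0.61; limma adjusted p = 0.171) in KO and 0.33 ± 0.13 (0.04 to 0.62; limma adjusted p = 0.176) in wild type. The second probe set, 1417876_at on set A, was dimmer, at 71.0, 86.1 and 64.6 in KO HDM, 55.7, 50.7 and 51.0 in WT HDM, 42.3, 51.3 and 50.3 in KO PBS, and 54.8, 38.5 and 55.9 in WT PBS. Only the KO HDM samples stood above the rest. Its HDM effect was 0.56 ± 0.20 (log2, SE; limma adjusted p = 0.118) in KO and 0.08 ± 0.20 (limma adjusted p = 0.882) in wild type. Neither probe set passed the test, which leaves Fcgr1 as the member with no call in either genotype. With each array set fitted and adjusted on its own, 1417876_at passed in KO at the same effect (adjusted p = 0.047).

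Fcer1g encodes the signalling chain that brings the activating receptors to the cell surface and also serves the IgE receptor. Its probe set 1418340_at read 433, 450 and 558 in KO HDM, 417, 337 and 406 in WT HDM, 259, 180 and 262 in KO PBS, and 199, 119 and 155 in WT PBS. The groups were ordered KO HDM, WT HDM, KO PBS, WT PBS, and the only neighbours that overlapped were the PBS groups. The HDM effect was 1.03 ± 0.20 (log2, SE; interval 0.60 to 1.46; limma adjusted p = 0.00741) in KO and 1.28 ± 0.20 (0.85 to 1.71; limma adjusted p = 0.00186) in wild type, ratios of mean signals of 2.06 and 2.45. Without the 3 wild-type samples with muscle signal the wild-type effect was 1.18 (limma adjusted p = 0.053), and Fcgr3 was then the only gene whose representative probe set still passed in wild type. Both calls held without any single sample. On the log2 scale the effect lay below that of Fcgr3 and above those of Fcgr4 and Fcgr1, as a description of single probe sets.

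Fcgr2b, the inhibitory receptor, was read by 5 probe sets that disagreed in size. The brightest, 1435476_a_at, read 1030, 1028 and 1068 in KO HDM, 744, 907 and 1035 in WT HDM, 339.4, 378 and 404 in KO PBS, and 446, 431 and 723 in WT PBS. HDM and PBS samples did not overlap within a genotype, although WT PBS replicate 3, at 723, came close to the lowest WT HDM sample, at 744. The HDM effect was 1.47 ± 0.18 (log2, SE; interval 1.07 to 1.86; limma adjusted p = 0.000477) in KO and 0.77 ± 0.18 (0.37 to 1.16; limma adjusted p = 0.0227) in wild type. The wild-type call was lost without WT HDM replicate 2 or 3 or WT PBS replicate 1 or 2 (effects of 0.64 to 0.75, adjusted p of 0.066 to 0.099), while the KO call held without any single sample. Without the 3 samples with muscle signal, which leaves 1 WT HDM sample assumed to vary like the other groups, the wild-type effect was 0.86 (limma adjusted p = 0.11).

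The other 3 set A probe sets of Fcgr2b gave larger effects of similar size in both genotypes. Probe set 1435477_s_at read 1066, 983 and 993 in KO HDM, 797, 890 and 1178 in WT HDM, 147, 160 and 137 in KO PBS, and 164, 126 and 111 in WT PBS. Its HDM effect was 2.72 ± 0.17 (log2, SE; limma adjusted p = 3.75e-06) in KO and 2.77 ± 0.17 (limma adjusted p = 1.69e-06) in wild type. The lowest HDM sample read 797 on this probe set and the highest PBS sample 164, a wider separation than on 1435476_a_at. Probe set 1451941_a_at read 704 to 750 in KO HDM, 510 to 699 in WT HDM, 85.0 to 101.5 in KO PBS and 72.3 to 99.2 in WT PBS, with HDM effects of 2.90 ± 0.15 in KO and 2.67 ± 0.15 in wild type (limma adjusted p = 1.3e-06 and 1.52e-06). Probe set 1455332_x_at read 292 to 410 in KO HDM, 373 to 386 in WT HDM, 58.9 to 73.3 in KO PBS and 49.6 to 75.1 in WT PBS, with effects of 2.18 ± 0.19 in KO and 2.43 ± 0.19 in wild type (limma adjusted p = 3.18e-05 and 1.01e-05). All 3 passed the test in both genotypes without any single sample. The fifth probe set, 1447622_at on set B, read 2.29 to 16.97 over the 12 samples and was not tested. In this array family the endings _s_at and _x_at mark probe sets that can match other transcripts, while 1451941_a_at carries neither ending. The extracellular parts of mouse Fcgr2b and Fcgr3 are closely similar, and a part of such matching in these values was not tested.

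**Figure D2:**
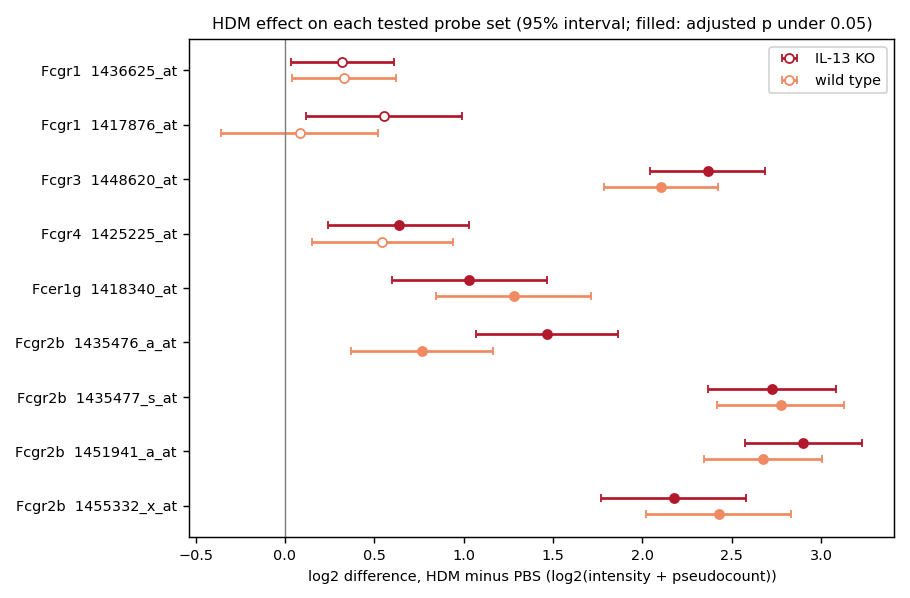
HDM minus PBS difference on the log2(intensity + pseudocount) scale (horizontal axis) with its 95% interval for the 9 tested member probe sets, IL-13 KO above wild type in each pair; filled points have an adjusted p under 0.05. The Fcgr3 probe set and 3 of the 4 tested Fcgr2b probe sets lie above 2 in both genotypes, and both Fcgr1 probe sets have open points.

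Whether loss of IL-13 altered these effects was read from the difference between the HDM effects, KO minus wild type. None of the 9 member probe sets passed in limma, where 0.0888% of all tested probe sets did, and 1 had an unadjusted p under 0.05, where 5.75% of all did. The difference was 0.26 (log2, 95% interval -0.19 to 0.71; limma adjusted p = 0.946) for Fcgr3, 0.09 (-0.47 to 0.65; limma adjusted p = 0.989) for Fcgr4 and -0.25 (-0.86 to 0.36; limma adjusted p = 0.961) for Fcer1g. For Fcgr1 it was -0.01 (-0.42 to 0.40; limma adjusted p = 0.999) by 1436625_at and 0.47 (-0.15 to 1.09; limma adjusted p = 0.919) by 1417876_at. Over these probe sets the intervals reach from -0.86 to 1.09, so equal effects in the genotypes are not shown. For Fcgr2b the difference was 0.70 (0.14 to 1.26; unadjusted p = 0.0185, limma adjusted p = 0.767) by 1435476_a_at, against -0.05, 0.23 and -0.25 by 1435477_s_at, 1451941_a_at and 1455332_x_at. The probe set with the smallest HDM effect was therefore the only one of the 4 whose interval lay above 0.

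KO and wild type were also compared within each treatment. After HDM none of the 9 member probe sets passed in limma, where 0.495% of all tested probe sets did, and 0 had an unadjusted p under 0.05, where 8.58% of all did. The samples of 4 of 9 did not overlap between the genotypes, where 15% of all did not. These 4 were Fcgr3, Fcer1g, Fcgr1 by 1417876_at and Fcgr2b by 1451941_a_at, all higher in KO HDM, by 0.13, 0.31, 0.44 and 0.32 on the log2 scale (limma adjusted p of 0.584 to 0.892). After PBS none of 9 passed in limma, where 0.0444% of all did, and 2 had an unadjusted p under 0.05, where 6.84% of all did. The samples of 2 of 9 did not overlap, where 11.3% of all did not. These were Fcgr1 by 1436625_at, higher in KO PBS by 0.27 (interval -0.02 to 0.56; limma adjusted p = 0.755), and Fcgr2b by 1435476_a_at, which differed by -0.47 (-0.86 to -0.07; limma adjusted p = 0.668). Fcer1g differed by 0.56 (0.12 to 0.99; limma adjusted p = 0.624) between KO PBS and WT PBS, with overlapping samples. The part of the lower actin ratio of KO HDM in the genotype values after HDM was not tested.

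The balance between each activating component and the inhibitory receptor was the log2 signal of the gene minus that of Fcgr2b in the same sample. Fcgr3 minus Fcgr2b by 1435476_a_at was -0.94 to -0.87 in KO HDM, -0.99 to -0.62 in WT HDM, -2.12 to -1.64 in KO PBS and -2.51 to -1.88 in WT PBS. All 6 HDM samples were above all 6 PBS samples. The HDM minus PBS change in this difference, averaged over genotypes, was 1.12 (exact two-sided permutation test within genotype over 400 arrangements, p = 0.005, the smallest it can give; adjusted p = 0.04 over 8 tests). Fcgr1 changed by -0.79 relative to Fcgr2b (exact p = 0.01, adjusted p = 0.04), Fcgr4 by -0.53 (exact p = 0.02, adjusted p = 0.0533) and Fcer1g by 0.04 (exact p = 0.89). These are averages over the genotypes: the change was 0.90 in KO and 1.34 in wild type for Fcgr3, -1.15 in KO and -0.44 in wild type for Fcgr1, and -0.83 in KO and -0.22 in wild type for Fcgr4. For Fcer1g it was -0.44 in KO and 0.51 in wild type, opposite signs that cancel in the average, and the difference between these changes was not tested. The Fcgr1 probe set is on set B and that of Fcgr2b on set A, so this difference also spans a pair of arrays. The Fcgr1 change missed the threshold when any 1 of 8 samples was left out (exact test, adjusted p of 0.06 to 0.1), and passed only without WT HDM replicate 1, KO PBS replicate 2 or 3, or WT PBS replicate 3. Fcgr4 passed without WT HDM replicate 1 (-0.56, adjusted p = 0.032) or WT PBS replicate 3 (-0.63, adjusted p = 0.027). None of the 4 KO minus WT changes passed over all samples, at 0.39 for Fcgr1 and 0.55 for Fcer1g (exact test, adjusted p = 0.144 and 0.12), and both passed without WT HDM replicate 1, at 0.51 and 0.64 (adjusted p = 0.02 each).

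The direction of the change in balance depended on the Fcgr2b probe set. Against 1435477_s_at and 1451941_a_at, Fcgr3 changed by -0.51 and -0.55 (exact permutation test, adjusted p = 0.03 and 0.01), and against 1455332_x_at by -0.07 (exact, adjusted p = 0.69). Fcer1g changed by -1.59, -1.63 and -1.15 against the same 3 probe sets. Fcgr1 (-2.42, -2.46 and -1.97) and Fcgr4 (-2.16, -2.20 and -1.71) fell relative to Fcgr2b on all 3, as they also lay below 0 with 1435476_a_at. The sign of the HDM minus PBS change in balance is therefore shared by all 4 Fcgr2b probe sets for Fcgr1 and Fcgr4 alone.

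**Figure D3:**
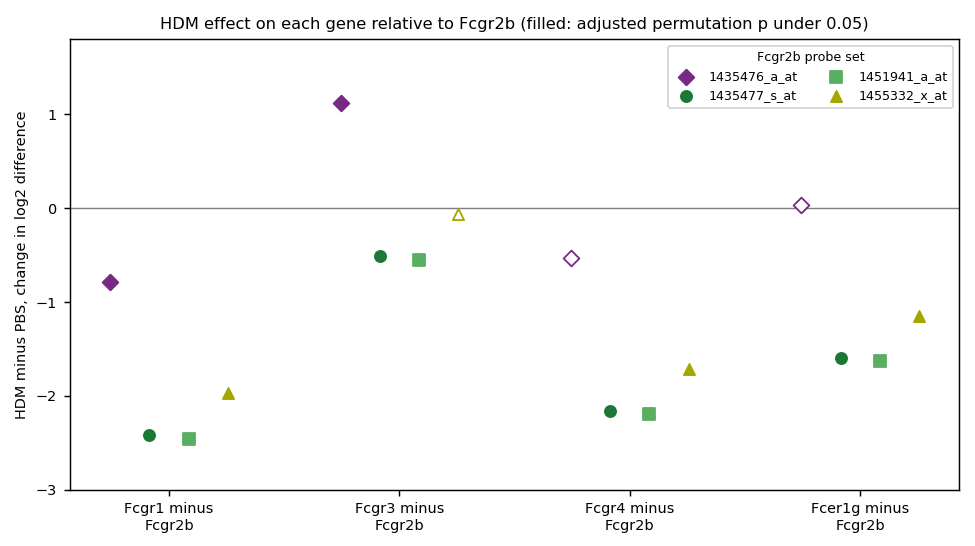
HDM minus PBS change in the log2 difference between each gene and Fcgr2b (vertical axis), averaged over IL-13 KO and wild type, with 1 marker shape for each of the 4 tested Fcgr2b probe sets; filled markers have an adjusted exact permutation p under 0.05. Fcgr3 ranges from 1.12 with 1435476_a_at to -0.55 with 1451941_a_at, and every marker of Fcgr1 and Fcgr4 lies below 0.

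The members also differed in how closely they followed one another and other genes over the 12 samples, given as Pearson r of log2 signal with no test, since treatment alone separates the samples. Fcgr3 followed the Fcgr2b probe sets 1451941_a_at, 1435477_s_at and 1455332_x_at with r of 0.989, 0.98 and 0.977, and 1435476_a_at with 0.922. Within groups, after group means were removed, the same pairs had r of 0.34, -0.146, 0.137 and 0.405. The genes most like Fcgr3 were Ly86, Ms4a7, Wfdc17, Clec7a and Mrc1, with r of 0.985 to 0.987. Those most like Fcgr2b by 1435477_s_at were Cd68, C1qa, Ms4a6d, Ly86 and Ifi30 (0.991 to 0.995), while those most like 1435476_a_at were Ly9, Aurkb, Jak3, Capza1 and Pclaf (0.958 to 0.966). Fcer1g was most like Spi1, Pou2af1, Cd52, Plek and Cmtm7 (0.968 to 0.985), and it kept an r of 0.869 with Spi1 within groups, where Fcgr3 and Ly86 had 0.271. Fcgr4 was most like Aurka (0.955, and 0.803 within groups), and Fcgr1 by 1436625_at like 4931429P17Rik (0.926, and 0.723 within groups). For Fcgr2b the r within groups was 0.766 for 1435477_s_at with Cd68 and 0.826 for 1435476_a_at with Aurkb.

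Some of the genes that act downstream of the receptors rose with HDM as well. Of 21 tested genes of Fc receptor signalling, 10 rose and 0 fell in KO, and 10 rose and 1 fell in wild type, with median effects of 0.60 and 0.53 (log2). Across all 14486 tested genes, 11.1% changed in KO and 10.7% in wild type. Ncf1, a subunit of the phagocyte oxidase, averaged 2004 ± 132 in KO HDM, 1657 ± 148 in WT HDM, 681 ± 76.7 in KO PBS and 517 ± 63.2 in WT PBS (SD, n = 3), an effect of 1.55 in KO and 1.66 in wild type (limma adjusted p = 1.93e-05 and 7.47e-06). Syk, the kinase recruited by the Fcer1g chain, rose by 1.10 and 1.26 (limma adjusted p = 0.00261 and 0.00099). Btk, Rac2 and Lcp2 rose in both genotypes as well. Inpp5d, the phosphatase recruited by Fcgr2b, was named for that role and not by its rank, and had effects of 0.43 and 0.51 that did not pass (limma adjusted p = 0.105 and 0.0613). The gene that fell in wild type, named after its value was seen, was Inpp5b, a related phosphatase of inositol phospholipids (-0.57, limma adjusted p = 0.0397). Without the 3 samples with muscle signal 7 genes of this list rose in wild type and 0 fell, with Inpp5b at -0.83 (limma adjusted p = 0.0721).

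In a list of genes drawn up around the Fcer1g chain and its relative Tyrobp, 13 receptors and adaptors were tested. Of these, 4 rose in KO and 3 in wild type, with medians of 0.32 and 0.28 and 0 falling. Tyrobp itself rose by 0.98 in KO and 0.87 in wild type (limma adjusted p = 0.00117 and 0.00234). Trem2, a macrophage receptor for lipids, averaged 166 ± 31.0 in KO HDM, 195 ± 45.1 in WT HDM, 8.96 ± 1.43 in KO PBS and 8.73 ± 2.08 in WT PBS (SD, n = 3). Of 13 uptake and complement genes, 6 rose in KO and 7 in wild type, with medians of 0.48 and 0.75. That is 46.2% and 53.8% of this list, and 30.8% and 23.1% of the list around Fcer1g and Tyrobp. Across all tested genes, 11.1% changed in KO and 10.7% in wild type. C1qa, a chain of the complement component that binds IgG complexes, rose by 2.05 in both genotypes (limma adjusted p = 7.44e-06 and 5.16e-06), and C3ar1, the receptor for C3a, by 3.05 and 3.44 (limma adjusted p = 0.000488 and 0.000177).

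Of 4 tested immunoglobulin genes, Ighg3, Igha and Jchain rose in both genotypes. Of all tested genes, 11.1% changed in KO and 10.7% in wild type. Ighg3 encodes an IgG heavy chain, and binding of its product to these receptors was not tested. Its signal averaged 408 ± 107 in KO HDM, 275 ± 65.2 in WT HDM, 67.8 ± 21.2 in KO PBS and 64.2 ± 7.06 in WT PBS (SD, n = 3). The HDM effects were 2.48 in KO and 1.97 in wild type (limma adjusted p = 0.000106 and 0.000494). Igha was higher in KO HDM than in WT HDM by 1.66 (limma adjusted p = 0.0182), where 0.732% of all tested genes were called. That call was lost without the 2 samples of low actin ratio (1.715, limma adjusted p = 0.0697). The difference was 1.40 without the 3 samples with muscle signal.

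Antibody receptors outside the Fc gamma family rose with HDM too. For 2 of them a difference in HDM effect between genotypes was called, over all samples only. The HDM counts stand beside 11.1% of all tested genes called in KO and 10.7% in wild type. Of 9 tested, 3 rose in KO and 6 in wild type, and 3 rose in wild type without the 3 samples with muscle signal. Pigr, which carries IgA and IgM across epithelium, averaged 575 ± 186 in KO HDM, 1693 ± 282 in WT HDM, 279 ± 26.0 in KO PBS and 173 ± 28.7 in WT PBS (SD, n = 3). Its HDM effects of 0.98 in KO and 3.24 in wild type differed by -2.26 (limma adjusted p = 0.0151), and those of Fcgbp, a mucus protein that binds the Fc part of IgG, differed by -1.47 (limma adjusted p = 0.0445). Neither difference passed without the 3 samples with muscle signal, at -2.38 for Pigr and -1.47 for Fcgbp (limma adjusted p = 0.162 and 0.352), or without the 2 samples of low actin ratio (-2.13 and -1.32, limma adjusted p = 0.127 and 0.305). Fcgrt, the neonatal Fc receptor that recycles IgG, rose by 1.07 in KO and 0.58 in wild type (limma adjusted p = 0.000617 and 0.0229) with no such difference called (limma adjusted p = 0.814). Its wild-type call was lost without the samples with muscle signal (0.65, limma adjusted p = 0.13). Between KO HDM and WT HDM, Pigr differed by -1.58 and Fcgbp by -1.94 (limma adjusted p = 0.00446 and 0.000151), where 0.732% of all tested genes were called. Without the 2 samples of low actin ratio these differences were -1.57 and -1.90 (limma adjusted p = 0.0321 and 0.00246). They were -1.815 and -2.05 without the 3 samples with muscle signal. The Pigr call was lost in that fit, which leaves 1 WT HDM sample. A difference in HDM effect between genotypes was called for 2 of these 9 genes and for 0 of the 5 members, beside 0.173% of all tested genes. The contrast between those counts was not tested.

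Markers of some of the cells that carry Fc gamma receptors moved with HDM too, while those of neutrophils did not pass in either genotype. The counts below stand beside 11.1% of all tested genes called in either direction in KO and 10.7% in wild type. Of 9 tested macrophage markers, 5 rose in KO and 6 in wild type. Their summed signal was 10251 to 10840 in KO HDM, 9266 to 11657 in WT HDM, 6582 to 8631 in KO PBS and 7550 to 7978 in WT PBS. Of 5 pan-leukocyte markers, 3 rose in KO and 5 in wild type, with sums of 5160 to 5721 in KO HDM, 3609 to 5542 in WT HDM, 2531 to 2957 in KO PBS and 1759 to 2246 in WT PBS. Of 5 B cell markers 2 rose in KO and 3 in wild type, and of 6 mast cell markers 5 rose in KO and 3 in wild type, where 0 passed in limma without the 3 samples with muscle signal. Without the 2 samples of low actin ratio 1 B cell marker rose in each genotype, 3 pan-leukocyte markers rose in wild type, and 0 mast cell markers passed in limma in wild type. None of 6 neutrophil or 5 NK cell markers passed in limma in either genotype, with an unadjusted p under 0.05 for 2 and 1 of them in KO and for 1 of each in wild type. Over all tested probe sets, 22.7% had such a p in KO and 20.1% in wild type. The summed neutrophil signal was 610 to 728 in KO HDM, 448 to 597 in WT HDM, 810 to 915 in KO PBS and 504 to 759 in WT PBS. Of 5 T cell markers 3 rose in KO and 2 in wild type, and of 4 tested monocyte markers 1 rose in each genotype, that of wild type only with the samples with muscle signal included, and 0 passed in limma in either without the samples of low actin ratio. Of 5 tested dendritic cell markers 3 rose in KO, while none passed in limma in wild type, where 1 had an unadjusted p under 0.05. The 4 eosinophil markers on the arrays all lay under the filter on low signal, with summed signals of 101 to 157 in KO HDM, 132 to 142 in WT HDM, 45.0 to 78.5 in KO PBS and 63.6 to 93.2 in WT PBS. Of 7 lung markers 1 fell in KO, which is 14.3% and near the 11.1% of all tested genes called, and 3 fell in wild type. Their medians were -0.35 and -0.42 (log2), with 3 markers above 0 in KO and 1 in wild type. Without the samples with muscle signal, which leaves 1 WT HDM sample, the wild-type median was -0.10 and fewer lung markers fell by the test. The part of these cells in the member values was not tested.

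**Figure D4:**
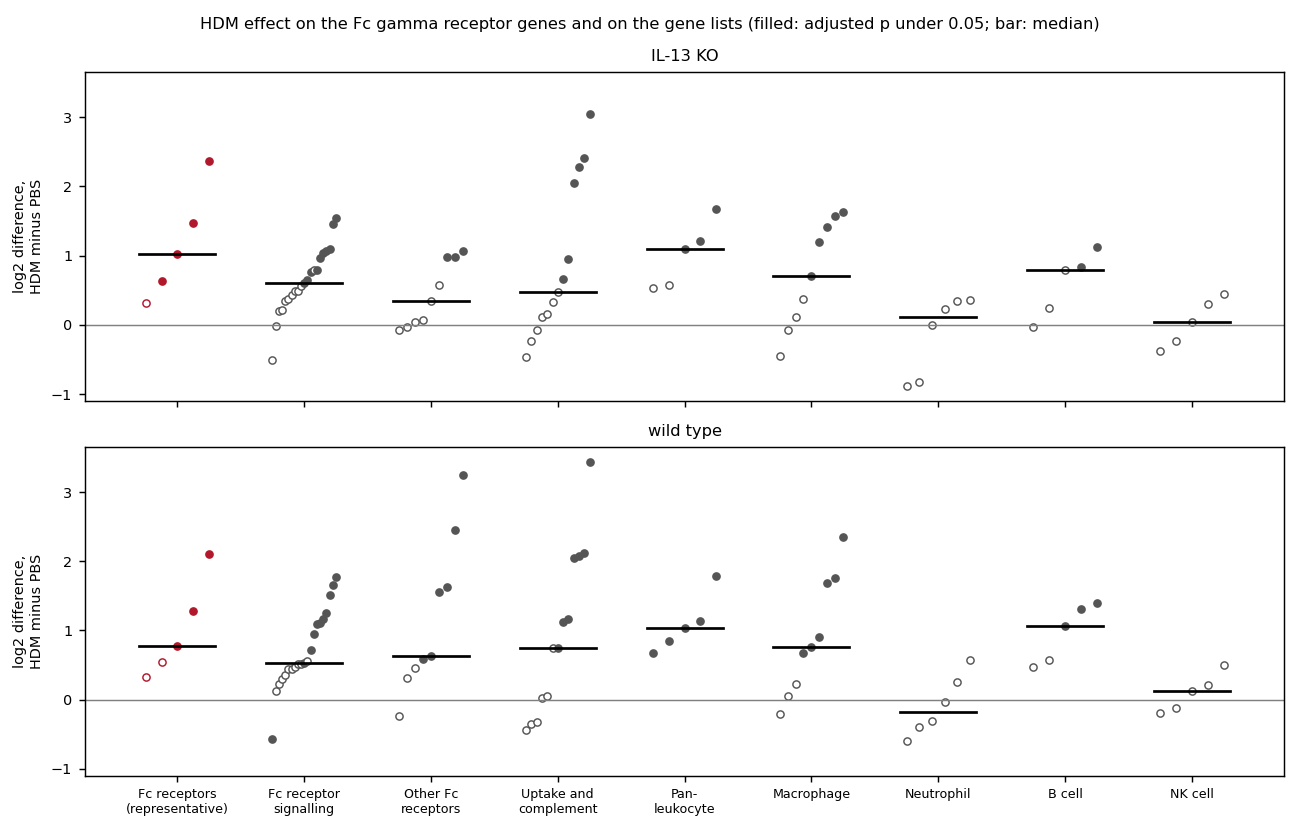
HDM minus PBS difference on the log2 scale (vertical axes) of the 5 members by their representative probe sets (red) and of the tested genes of 8 lists (grey), IL-13 KO above wild type; filled points have an adjusted p under 0.05 and bars are medians. The member medians of 1.03 and 0.77 stand beside 1.10 and 1.04 for pan-leukocyte markers and 0.70 and 0.76 for macrophage markers.

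Genes beside the members on the chromosome moved in both directions. Fcgr2b, Fcgr3, Fcgr4 and Fcer1g lie on chromosome 1 and Fcgr1 on chromosome 3. Of 54 tested genes that start within 500000 bases of a member's start in the RefSeq table, 5 rose and 4 fell in KO and 4 rose and 5 fell in wild type, with medians of -0.05 and -0.002 on the log2 scale. That is 16.7% called in each genotype, beside 11.1% of all tested genes in KO and 10.7% in wild type. Those that rose in both were the lymphocyte surface genes Ly9 and Cd48 and the GTPase regulator Arhgap30. Itln1, a secreted lectin, averaged 2.98 ± 0.82 in KO HDM, 420 ± 18.6 in WT HDM, 2.08 ± 0.43 in KO PBS and 2.54 ± 0.89 in WT PBS (SD, n = 3). Its HDM effects of 0.14 in KO and 5.52 in wild type (log2) differed by -5.38 (limma adjusted p = 1.63e-05), the only genotype difference called among the 54, and by -5.29 without the samples with muscle signal (limma adjusted p = 0.0177).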

How the data were processed

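Gene expression of 12 mouse lung samples was measured on 24 microarrays, a set A and a set B array per sample, and group and replicate were read from the sample titles. The deposited values are linear intensities, 1 per probe set and array. Which software the authors used is not given in the sources used here. With 2% trimmed at both ends, array means lay between 150.02 and 150.04, so the deposited intensities had been scaled by the authors, and no further scaling was applied. Array medians ranged from 69.5 to 77.7 (set A) and from 83.5 to 93.7 (set B), and the number of arrays limits the precision.

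Intensities were converted here to log2(intensity + pseudocount), with pseudocounts of 6.78 (set A) and 10.7 (set B), taken at the 10th percentile. Control probe sets and those whose mean signal was below the 30th percentile (33.9 and 43.2) were not tested, which left 15838 and 15688. A model with 4 group means (8 residual degrees of freedom) was fitted with limma 3.58.1 in R 4.3.3, with eBayes and an intensity trend, and checked on simulated data. Receptor balance used exact permutation tests, Benjamini-Hochberg adjusted over 8 tests. Gene names came from the platform annotation, and promoters from the RefSeq table of build GRCm38.p6; the array files name no build.

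All probe sets of the members were described. The tested probe set of highest mean signal represented a gene, up to 5 genes per list and comparison were named by smallest p, besides counts over the list and 2 inositol phosphatases named outside this rule, and the 5 genes with the highest r were named as most like a member. The members and lists were chosen with earlier results of these data known. Listed genes without a probe set of their own, such as the IgG heavy chains other than Ighg3, were not analysed here, and 1 list and 1 promoter motif are not reported here. Same-numbered samples of different groups correlated, after group means were removed, with r of -0.0711 to 0.172 (18 pairs), and others with -0.199 to 0.128 (36 pairs), so replicate numbers were not taken as pairs. Alternatives covered normalization, pseudocount, filter, trend, array weights, the samples fitted, array sets and the replicate block; list counts without the doubted samples were added after seeing the data.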

Additional observations from a re-analysis of the deposited data

How the results depend on the processing

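The HDM effects of Fcgr3 and of Fcgr2b by 1435477_s_at, 1451941_a_at and 1455332_x_at passed the test in both genotypes under all 24 alternatives, with Fcgr3 at 2.12 to 2.50 in KO and 1.89 to 2.16 in wild type. Fcer1g passed in KO under all 24 (0.86 to 1.12), and in wild type under 23 of 24, with 1.18 (adjusted p = 0.053) without the 3 muscle-signal samples. Fcgr2b by 1435476_a_at in wild type lost the call at 0.77 with the compared groups alone (adjusted p = 0.11), at 0.86 without the muscle-signal samples and at 0.64 without the 2 samples of low actin ratio. Fcgr4 in KO lost it at 0.64 with no filter (0.064), with the compared groups alone (0.086) and without the muscle-signal samples (0.076), and at 0.67 without the low actin samples (0.11), while Fcgr4 in wild type passed at 0.54 with each array set adjusted alone (0.035). Member genes called in wild type numbered 3, and 1 without the muscle-signal samples. Probe sets called numbered 2464 for HDM in wild type, against 1180 with the compared groups alone, 991 without the muscle-signal and 1423 without the low actin samples; for HDM in KO 2733, against 1793 without the low actin samples. For the interaction they numbered 28, against 17 with a pseudocount of 1, 4 without the muscle-signal and 8 without the low actin samples. With the replicate block the interaction count was 13, and the block changed no call of a member's representative probe set. For KO against WT after PBS the count was 14, against 9 with no trend, 2 with the compared groups alone, 22 with each set alone, 9 without the muscle-signal and 5 without the low actin samples, and after HDM 156, against 44 and 78 without those samples.

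Leaving out single samples gave 1408 to 2347 probe sets for HDM in wild type, 1560 to 2838 for HDM in KO, 8 to 22 for the interaction, 11 to 22 after PBS and 73 to 161 after HDM. It gave 0.49 to 0.80 for Fcgr4 in KO and 0.64 to 1.005 for Fcgr2b in wild type. For the HDM balance against Fcgr2b it gave -0.92 to -0.71 for Fcgr1 and -0.63 to -0.44 for Fcgr4, and for KO minus WT 0.28 to 0.51 for Fcgr1 and 0.43 to 0.69 for Fcer1g. By the other Fcgr2b probe sets, in the order 1435477_s_at, 1451941_a_at and 1455332_x_at, the HDM balance was -0.51, -0.55 and -0.066 for Fcgr3, -1.59, -1.63 and -1.15 for Fcer1g, and -2.16, -2.20 and -1.71 for Fcgr4, and the KO minus WT balance of Fcer1g passed at 0.52 (adjusted p = 0.02) with 1455332_x_at. The causes of these changes were not tested. With 3 samples a group and no detection calls, small differences and dim probe sets such as 1447622_at cannot be resolved.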
